A study of Mus musculus with 47 samples.

Results

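The collagen and laminin genes of mouse liver were described across 3 inbred strains, 2 diets and both sexes. The 47 members were genes of the count table whose symbol names a collagen chain (37 genes) or a laminin chain (10 genes), out of 20320 genes listed. The choice went by symbol, except that 1 further laminin chain gene was left out, having been grouped beforehand with the genes that respond to diet in NZO/HlLtJ. Counts of laminins therefore do not cover every laminin gene of the table. Of the 47, 45 passed the filter on low counts and were tested among 16650 genes. Col10a1, at a mean of 0.0618 CPM (counts-per-million), and Col28a1, at 0.0516 CPM, were not tested.

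The series asked how genotype and diet act together on gene expression in mouse models that differ in their risk of type 2 diabetes. Its 47 liver libraries came from wild-type C57BL/6J (16 libraries), CAST/EiJ (15) and NZO/HlLtJ (16) mice, female (F, 24) and male (M, 23). Mice received a diet with 10% fat and added fiber (23 libraries) or one with 44% fat and added fiber (24 libraries) starting at week 6 of age, until their livers were collected at week 15. The treatment protocol calls these a control diet and a high fat, high sugar diet. Each of the 12 groups held 4 libraries, apart from CAST/EiJ M on 10% fat with 3. No transgene, deletion or drug separated the groups. Every animal of a strain is a near copy of the same inbred genome, so a strain difference here is a difference between 3 genotypes and not between populations. Nothing in the labels says how the animals of a group were housed or related, and the p-values measure the spread between these libraries.

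Collagens are extracellular proteins of 3 chains wound into a helix, and each chain has its own gene. Types I, III and V form the banded fibrils of scar and vessel walls, with type V buried inside the fibril, where it governs fibril width. Type IV chains assemble into the sheet-like network of basement membranes, and laminins, trimers of an alpha, a beta and a gamma chain, form the second network of the same membranes and bind cells through integrins and dystroglycan. Type VI makes beaded filaments near cells. Types XII, XIV, XVI and XX sit on fibril surfaces, and types XV and XVIII carry glycosaminoglycan chains at the border of the basement membrane. The space between hepatocytes and sinusoids holds little continuous basement membrane, and in scarring liver most fibrillar collagen comes from stellate cells and portal fibroblasts.

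Library totals ran from 21609240 to 47780231 estimated counts. The summed level of 6 hepatocyte genes (Alb, Apoa1, Ttr, Hnf4a, Cps1 and Tat) ran from 44790 to 129600 CPM, so the labelled tissue had its defining RNAs in every library. In 5 libraries Cpa1, which encodes a digestive enzyme of pancreatic acinar cells, reached 41.0 CPM or more. They were the C57BL/6J F 44% fat libraries 1 and 2, the C57BL/6J M 10% fat libraries 2 and 3 and the CAST/EiJ F 44% fat library 2. The first of them was set apart from the start for its high Col1a1. Its collagen values are therefore a description and are not read against chance. C57BL/6J F 44% fat replicate 1 had 81.6 CPM of Col1a1 against 6.42 to 8.52 CPM in the other 3 libraries of its group, and 197 CPM of Col3a1 against 29.4 to 37.3 CPM. Of the 45 tested members, 28 (62.2%) were above the other 3 libraries in it, beside 32.1% of all genes tested. For 18 members it was the highest of all 47 libraries. The median log2 difference from the other 3 was 0.62 over the members and 0.00 over all genes.

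Several marker lists moved with that library. Its 5 acinar genes summed to 516 CPM against 4.0 to 280 CPM in the other 3, its 4 myofibroblast genes (Acta2, Tagln, Timp1 and Lox) to 25.1 against 7.33 to 8.80 CPM, and its 4 tested portal fibroblast genes to 25.1 against 9.345 to 10.6 CPM. Its 6 cholangiocyte genes summed to 61.8 against 35.1 to 38.7 CPM. Stellate cell genes (336 against 320.5 to 360.1 CPM) and sinusoidal endothelial genes (260 against 287.5 to 312.6 CPM) were not raised in it. Genes of other endothelium summed to 79.3 against 62.4 to 69.6 CPM and macrophage genes to 264 against 199 to 251 CPM. Turnover genes summed to 321 against 193.5 to 217.5 CPM. TGF-beta genes summed to 308 against 188 to 219 CPM and receptor genes to 725.5 against 584 to 688 CPM. Hepatocyte, mesothelial, muscle and collagen-processing genes lay within the range of the other 3. Adipocyte genes and basement membrane partners lay below that range in this library. Col18a1 at 774 CPM, Col27a1 at 8.18 CPM and Lama3 at 0.409 CPM were lower there than in any other library. The part of these markers in the results was not tested. Each comparison below was refitted without this library for the collagen and laminin members. Marker lists and related gene lists are given with all libraries only.

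Per kilobase of exon, Col18a1 was far above every other member, at 153 CPM per kilobase (1073 CPM, range 774 to 1412 over the 47 libraries). It encodes the core protein whose C-terminal fragment is endostatin, and it lies on the reverse strand of GRCm38 chromosome 10 at 77052178 to 77166548. Col14a1 followed at 8.24 CPM per kilobase, then the basement membrane pair Col4a1 at 6.76 and Col4a2 at 4.79. Col27a1, a fibrillar collagen known from cartilage, was at 4.38 CPM per kilobase, and Col5a3, a chain of type V collagen, at 4.17. Lamc1, the common laminin gamma chain, led the laminins at 3.12 CPM per kilobase. The classic scar collagens were lower on this scale, with Col3a1 at 2.94, Col1a1 at 1.30 and Col1a2 at 1.19 CPM per kilobase. The scale divides by the merged exons of all annotated transcripts, at 9816, 6563 and 12426 bases for these genes. In mean CPM the order differed, with Col3a1 at 28.9, Col1a2 at 14.7 and Col1a1 at 8.56, beside 28.4 for Col5a3 and 31.7 for Col4a2.

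The order was not the same in the 3 strains. Col5a3 ranked 4 of 47 per kilobase in C57BL/6J and 6 in NZO/HlLtJ but 19 in CAST/EiJ. Col15a1 ranked 4 in NZO/HlLtJ, 10 in C57BL/6J and 15 in CAST/EiJ. Col27a1 ranked 3 in CAST/EiJ, 5 in NZO/HlLtJ and 8 in C57BL/6J. Col18a1 was first in each strain, at 151, 158 and 149 CPM per kilobase for C57BL/6J, for CAST/EiJ and for NZO/HlLtJ.

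**Figure D1:**
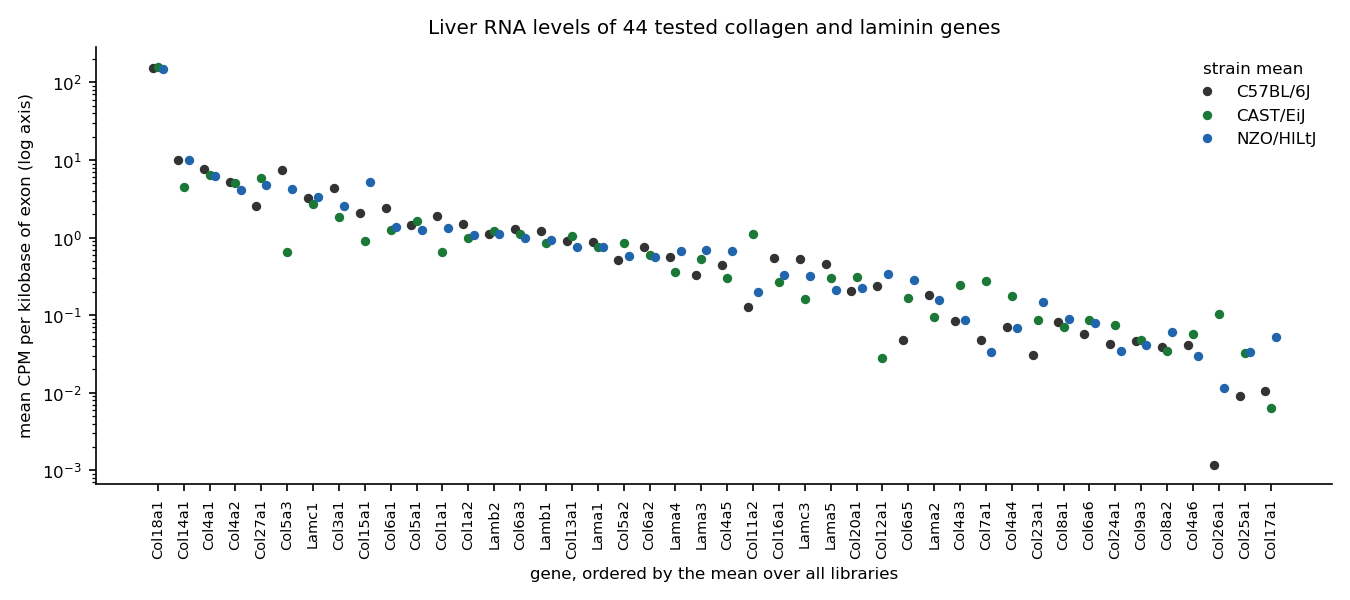
Mean level per kilobase of exon (log axis) of 44 of the 45 tested collagen and laminin genes for C57BL/6J, for CAST/EiJ and for NZO/HlLtJ, 1 point per strain, ordered by the mean over all libraries. Col18a1 stands near 150 in every strain, while Col5a3 and Col12a1 in CAST/EiJ and Col11a2 in C57BL/6J and NZO/HlLtJ fall well below the other points of those genes.

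The first question was what the 44% fat diet did to these genes within each strain. In NZO/HlLtJ, Col5a3 and Col15a1 rose. In CAST/EiJ, Col14a1 rose and Col4a3, a type IV chain of specialised basement membranes, fell. In C57BL/6J no member passed the test once all genes were adjusted for. Differences were fitted with edgeR's quasi-likelihood test over all 47 libraries, averaged over F and M, with a call where the p adjusted by Benjamini-Hochberg over all 16650 genes was under 0.05. In NZO/HlLtJ 2 of 45 members were called, both higher, beside 5.64% of all genes tested (3.5% higher and 2.14% lower). In CAST/EiJ 1 was higher and 1 lower, beside 0.895% of all genes (0.498% higher and 0.396% lower). In C57BL/6J 0 were called, beside 0.991% (0.823% higher and 0.168% lower). In C57BL/6J 11 of the 45 members had an unadjusted p under 0.05, beside 2088 of all 16650 genes, limma on the deposited variance-stabilized values called 0 and DESeq2 called 2.

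Col5a3 encodes the third alpha chain of type V collagen and lies on the reverse strand of chromosome 9 at 20770050 to 20815067 (GRCm38). Of the family it had the lowest adjusted p by diet and, further on, the lowest in the joint test of sex across strains, so the bases before its start are shown. The RefSeq window of 250 bases upstream, on the reverse strand at chr9:20815068-20815317 of GRCm38.p6, reads as follows, with a CCAAT box and both GC boxes in capitals.
Col5a3: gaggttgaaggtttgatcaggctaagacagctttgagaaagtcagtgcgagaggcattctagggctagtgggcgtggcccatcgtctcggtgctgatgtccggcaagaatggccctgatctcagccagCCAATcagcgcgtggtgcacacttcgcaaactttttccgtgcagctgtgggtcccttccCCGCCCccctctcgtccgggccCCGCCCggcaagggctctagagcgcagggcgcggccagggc
The windows were searched on both strands for 4 motifs, which do not overlap each other here. The CCAAT box (letters CCAAT) lay 122 to 118 bases before the start. The GC box (letters GGGCGG) lay on the opposite strand, 63 to 58 and 41 to 36 bases before it. Neither the TATA box (letters TATAAA) nor the Stat5-type site (letters TTCNNNGAA) was in this window. Among 32851 mouse promoter windows of the same length, 33.8% hold the CCAAT box, 32.7% the GC box, 12.4% the TATA box and 7.02% the Stat5-type site.

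In NZO/HlLtJ females on 10% fat, Col5a3 stood at 2.81, 4.32, 4.95 and 4.14 CPM, and on 44% fat at 9.59, 16.3, 20.2 and 13.6 CPM. In NZO/HlLtJ males it stood at 38.9, 19.1, 21.4 and 55.9 CPM on 10% fat and at 38.4, 54.3, 81.6 and 73.0 CPM on 44% fat. All 4 females on 44% fat were above all 4 on 10% fat, while the male groups overlapped. The mean over both sexes was 38.4 ± 28.2 CPM on 44% fat and 18.9 ± 19.5 CPM on 10% fat (SD, n = 8 each). The log2 difference was 1.38 (SE 0.22, edgeR quasi-likelihood adjusted p = 1.32e-04), being 1.85 in females and 0.95 in males. Fitted on the 16 libraries of the first run of consecutive sample identifiers alone, Col5a3 by diet in NZO/HlLtJ changed by 1.22 (adjusted p = 0.388).

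Col5a3 also had a positive difference in C57BL/6J that missed the threshold. Females of that strain had 9.69, 18.4, 19.1 and 14.9 CPM on 10% fat and 56.97, 18.5, 34.3 and 29.6 CPM on 44% fat, and males had 61.1, 75.4, 62.9 and 61.2 CPM against 82.0, 95.2, 74.7 and 93.6 CPM. The fitted log2 difference was 0.79 (SE 0.21, edgeR adjusted p = 0.0578), and 0.61 (adjusted p = 0.142) without the library set apart, which is the 56.97 CPM value. In CAST/EiJ the difference was -0.19 (adjusted p = 0.852).

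Col15a1 encodes the core chain of type XV collagen, which lies beside endothelial and stromal basement membranes, and is found at chromosome 4, 47208161 to 47313167. In NZO/HlLtJ females it stood at 25.5, 26.7, 17.8 and 30.8 CPM on 10% fat and at 37.8, 59.8, 45.2 and 52.7 CPM on 44% fat. In males the values were 24.5, 16.7, 22.8 and 41.5 CPM against 24.3, 35.3, 41.5 and 26.9 CPM. The female groups did not overlap and the male groups did. The log2 difference over both sexes was 0.62 (SE 0.17, edgeR adjusted p = 0.0262), 0.96 in females and 0.33 in males. Its call was lost in 6 of the 47 refits that left out a library, with adjusted p up to 0.0766. In C57BL/6J the difference was 0.34 (adjusted p = 0.423) and in CAST/EiJ -0.47 (adjusted p = 0.289).

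**Figure D2:**
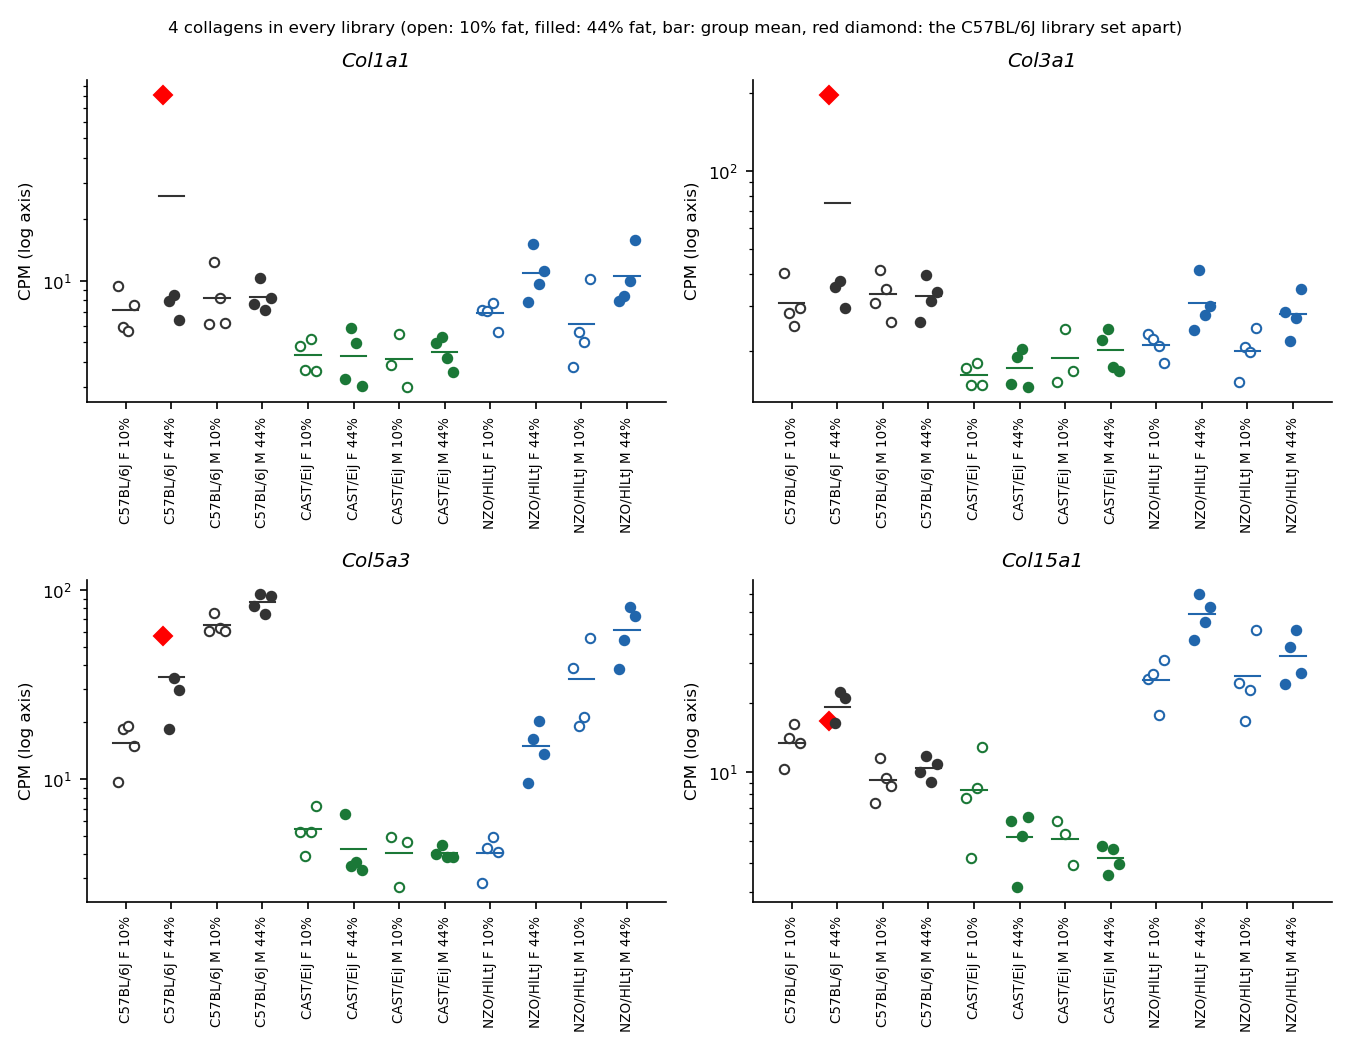
CPM (log axis) of Col1a1, Col3a1, Col5a3 and Col15a1 in every library of the 12 groups of strain, sex and diet, with open points for 10% fat, filled points for 44% fat and a bar at each group mean. The red diamond is C57BL/6J F 44% fat replicate 1, at 81.6 CPM of Col1a1, and NZO/HlLtJ females on 44% fat lie above those on 10% fat in Col5a3 and Col15a1.

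The fibril-forming chains of scar showed how far a single library set the outcome. Col1a1 (chromosome 11, 94936224 to 94953042), the main chain of type I collagen, stood in NZO/HlLtJ at 7.14, 7.13, 7.74 and 5.63 CPM in females on 10% fat and at 7.90, 15.1, 9.68 and 11.1 CPM on 44% fat. In males of that strain it stood at 3.79, 5.60, 4.99 and 10.2 CPM against 7.97, 8.44, 10.0 and 15.8 CPM. Every female library on 44% fat was above every female library on 10% fat, and the male groups overlapped through their highest 10% fat value. The means were 10.8 ± 3.11 and 6.53 ± 1.98 CPM (SD, n = 8 each). With all 47 libraries the log2 difference of 0.72 had an SE of 0.34 and an edgeR adjusted p of 0.228. Without the C57BL/6J library set apart it was again 0.72, with an SE of 0.18 and an adjusted p of 0.0126. The NZO/HlLtJ libraries are the same in both fits, and in each the spread is estimated over all libraries together.

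Col3a1, the partner of type I in reticular fibrils, had 20.6 ± 2.97 CPM on 10% fat and 29.4 ± 6.13 CPM on 44% fat in NZO/HlLtJ (SD, n = 8 each). The log2 difference of 0.51 had an edgeR adjusted p of 0.235 with all libraries and of 0.0101 without the library set apart. Col1a2, the other type I chain, had 11.4 ± 2.10 and 15.1 ± 2.79 CPM, a difference of 0.40 with an adjusted p of 0.294 and, without that library, 0.0238. Col18a1 was lower on 44% fat, at 972 ± 56.5 against 1124 ± 148 CPM, and its difference of -0.20 (adjusted p = 0.0601) became -0.21 (adjusted p = 0.0284). Without the library, 6 of 45 members were thus called in NZO/HlLtJ, beside 6.56% of all genes tested.

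The same library set the mean of type I collagen in C57BL/6J. Col1a1 averaged 17.2 ± 26.0 CPM on 44% fat and 7.70 ± 2.28 CPM on 10% fat (SD, n = 8 each), a log2 difference of 0.94 (SE 0.33, edgeR adjusted p = 0.192). Without the library it was 0.05 (SE 0.19, adjusted p = 0.959). Col3a1 went from 0.63 to 0.06, Col5a2 from 0.52 to -0.10 and Col1a2 from 0.42 to -0.04. The median over the 45 members went from 0.03 to -0.06, and 0 members were called either way by this test, beside 1.2% of all genes without the library.

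**Figure D3:**
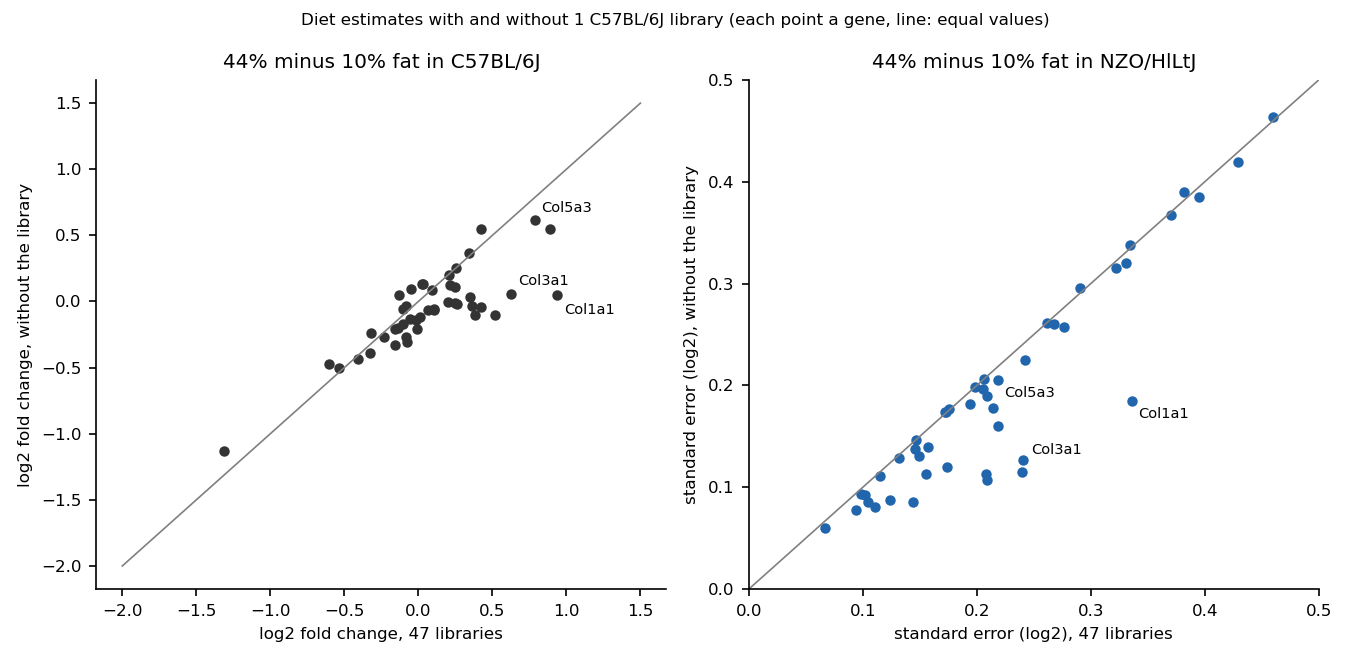
Left, fitted log2 diet differences of the tested genes in C57BL/6J with all 47 libraries (x axis) and without C57BL/6J F 44% fat replicate 1 (y axis). Right, standard errors (log2) of the NZO/HlLtJ diet differences in the same pair of fits. Each point is a gene and the line marks equal values: Col1a1 falls from 0.94 to 0.05 on the left, and its standard error falls from 0.34 to 0.18 on the right.

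Across the family in NZO/HlLtJ, 36 of 45 differences were positive with a median of 0.18, beside a median of 0.00 over all genes tested. All 10 laminin members were positive, 0 were called by edgeR in NZO/HlLtJ and 1 had an unadjusted p under 0.05. This list lacks the laminin gene that was grouped with diet genes of this strain, so the count of 0 holds for these 10 genes and not for the laminins as a whole. Lama5, the alpha chain of mature vascular and epithelial membranes, came closest at 0.37 (adjusted p = 0.141), followed by Lama4 of endothelial membranes at 0.24 (adjusted p = 0.323) and Lama2, known from muscle and nerve, at 0.39 (adjusted p = 0.335). Lamb1 at 0.10, Lamb2 at 0.06 and Lamc1 at 0.09 had adjusted p of 0.652 or more. Col4a1 at 0.20 and Col4a2 at 0.18, the common type IV pair, had adjusted p of 0.504 and 0.472. The type VI chains Col6a1, Col6a2 and Col6a3 had 0.20, 0.28 and 0.30, with adjusted p of 0.541, 0.394 and 0.467. Col5a1 (0.18), Col5a2 (0.13), Col14a1 (0.25) and Col27a1 (0.21) were also uncalled, with adjusted p of 0.396, 0.835, 0.146 and 0.617. In bulk liver RNA, more cells of a type and more RNA per cell cannot be told apart.

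Marker sums for the NZO/HlLtJ diets were read beside these values. The 4 myofibroblast genes summed to 5.14 to 7.87 CPM in females on 10% fat and 7.26 to 11.1 CPM on 44% fat, and in males to 5.07 to 8.99 against 8.69 to 10.1 CPM. All 4 had positive differences, with a median of 0.48, 0 were called by edgeR and 1 had an unadjusted p under 0.05. Portal fibroblast genes summed to 7.82 to 9.39 against 9.40 to 12.1 CPM in females and to 7.01 to 9.85 against 8.39 to 10.1 CPM in males. Of the 4 tested, 1 was called (Fbln2, 0.49), beside 5.64% of all genes tested. Stellate cell genes overlapped at 247 to 279 against 253 to 287 CPM in females and 228 to 258 against 226 to 280 CPM in males. Of these 10 genes 1 was called higher, as was 1 of 4 genes of other endothelium, beside 3.5% of all genes. Of 6 hepatocyte genes 2 were called lower, beside 2.14% of all genes. Hepatocyte genes summed to 89740 to 129600 against 89150 to 101300 CPM in females. In males they summed to 80450 to 100000 against 59860 to 76470 CPM. The part of these cell types in the collagen values was not tested.

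In CAST/EiJ the type IV chain gene Col4a3 (chromosome 1, 82586921 to 82722059) had 5.80, 2.26, 4.19 and 4.06 CPM in females on 10% fat and 1.27, 2.25, 2.69 and 2.29 CPM on 44% fat. Males had 3.20, 1.32 and 2.75 CPM against 1.04, 1.66, 1.26 and 1.08 CPM. The groups overlapped in both sexes. The log2 difference was -0.94 (SE 0.20, edgeR adjusted p = 0.0136), and its call was lost without CAST/EiJ M 10% fat replicate 1 (adjusted p = 0.0791). Fitted within each of the 3 runs of consecutive sample identifiers, the change of Col4a3 by diet in CAST/EiJ was -1.91, 0.13 and -1.06. Its head-to-head neighbour Col4a4, which starts 71 bases away and pairs with it in the same trimer, had -0.53 (adjusted p = 0.230). Exons of Col4a3 share 289 bases in the largest overlap with a transcript of the other strand, C430014B12Rik. Whether counting used strand is not given in the sources used here.

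Col14a1, whose protein coats fibril surfaces, had 27.4, 36.1, 32.6 and 28.3 CPM in CAST/EiJ females on 10% fat and 39.8, 38.9, 51.9 and 35.9 CPM on 44% fat. Males had 16.3, 24.7 and 22.6 CPM against 26.0, 29.5, 32.7 and 25.3 CPM. The male groups did not overlap, and the female groups overlapped only through 36.1 and 35.9 CPM. The difference was 0.42 (SE 0.11, edgeR adjusted p = 0.0440), but the call was lost in 14 of 47 refits without a library (adjusted p up to 0.219) and with the identifier run as a covariate (adjusted p = 0.0727).

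The other main members were uncalled in CAST/EiJ, from Col15a1 at -0.47 to Col27a1 at 0.47 (adjusted p = 0.322). The fibril-forming chains Col1a1, Col1a2, Col3a1, Col5a1 and Col5a2 had 0.06, 0.17, 0.10, 0.10 and 0.14. Col4a1 and Col4a2 had -0.05 and -0.01, and Col6a1, Col6a2 and Col6a3 had 0.23, 0.20 and 0.07. Col18a1 had -0.09. Among the laminins Lama2, Lama4, Lama5, Lamb1, Lamb2 and Lamc1 had 0.17, -0.06, 0.02, 0.05, -0.04 and 0.06. In C57BL/6J these 6 laminin genes had 0.37, -0.11, -0.16, 0.07, -0.06 and -0.02, the type VI chains 0.25, 0.35 and 0.38, the Col4a1 and Col4a2 pair 0.26 and 0.20, and Col5a1, Col14a1, Col18a1 and Col27a1 0.11, 0.21, -0.11 and 0.03, none of them called.

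Whether the diet difference depended on strain was tested jointly over the 3 strains. By edgeR 0 of 45 members were called, beside 0.048% of all genes tested, while 9 members had an unadjusted p under 0.05, beside 1758 of all 16650 genes. DESeq2 called 2 and limma on the deposited values 1. Col5a3 came nearest, at an adjusted p of 0.0772 for differences of 0.79, -0.19 and 1.38 for C57BL/6J, for CAST/EiJ and for NZO/HlLtJ, and at 0.0482 without the library set apart, where 0.138% of all genes were called. Col15a1 followed at 0.113.

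The strains themselves differed more widely. CAST/EiJ had little Col5a3, Col12a1, Col14a1 and Lamc3 and much Col11a2 and Col7a1, and NZO/HlLtJ had the most Col15a1 and Col6a5. Between NZO/HlLtJ and C57BL/6J, 29 of 45 members were called (13 higher and 16 lower in NZO/HlLtJ), beside 49.1% of all genes tested (25.5% higher and 23.6% lower). Between CAST/EiJ and C57BL/6J, 34 were called (15 higher and 19 lower in CAST/EiJ), beside 67.9% of all genes (32.6% higher and 35.3% lower). Between NZO/HlLtJ and CAST/EiJ, 30 were called (16 higher and 14 lower in NZO/HlLtJ), beside 68.1% (35.3% higher and 32.8% lower). The counts were near the background in the last 2, and the 3 comparisons share libraries. Without the library set apart the counts were 29, 33 and 31, beside 49.2%, 67.9% and 68.8% of all genes.

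Among fibril-forming chains, Col5a3 ran from 9.69 to 95.2 CPM in C57BL/6J (median 59.1), from 2.70 to 7.23 CPM in CAST/EiJ (median 4.01) and from 2.81 to 81.6 CPM in NZO/HlLtJ (median 19.7). All CAST/EiJ libraries were below all C57BL/6J libraries. The log2 difference was -3.24 (SE 0.17, edgeR adjusted p = 6.46e-19) for CAST/EiJ and -1.15 (SE 0.15, adjusted p = 5.90e-08) for NZO/HlLtJ, both against C57BL/6J. Within the 3 runs the first of these ran from -3.60 to -3.08. Col11a2, a chain of the minor fibrillar collagen of cartilage (chromosome 17, 34039437 to 34066685), went the other way. It ran from 5.38 to 9.99 CPM in CAST/EiJ (median 7.59), from 0.373 to 1.40 CPM in C57BL/6J (median 0.874) and from 0.637 to 2.90 CPM in NZO/HlLtJ (median 1.32). No CAST/EiJ library overlapped those of the other strains, and its difference from C57BL/6J was 3.13 (SE 0.14, adjusted p = 2.16e-22).

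Col1a1 had medians of 7.81, 4.16 and 7.93 CPM for C57BL/6J, for CAST/EiJ and for NZO/HlLtJ. Its log2 difference of CAST/EiJ from C57BL/6J was -1.31 (SE 0.25, edgeR adjusted p = 1.86e-05) with all libraries and -0.88 (adjusted p = 6.95e-07) without the library set apart. NZO/HlLtJ differed from CAST/EiJ by 0.97 (adjusted p = 9.02e-04), and from C57BL/6J by -0.35 (adjusted p = 0.229), which became 0.09 (adjusted p = 0.602) without that library. Col3a1 was lower than in C57BL/6J in CAST/EiJ (-1.14, then -0.86 without the library) and in NZO/HlLtJ (-0.69, then -0.41), and all 4 fits called it. Col1a2 was lower by smaller amounts, at -0.51 and -0.42, then -0.29 and -0.20, all called.

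Type V chains and their relatives differed among themselves. Col5a3, given above, was lower in CAST/EiJ than in C57BL/6J, as were Col1a1, Col1a2 and Col3a1. Col5a2 was higher in CAST/EiJ than in C57BL/6J by 0.85 (edgeR adjusted p = 3.84e-05). In NZO/HlLtJ its difference of 0.28 (adjusted p = 0.179) became 0.58 (adjusted p = 2.69e-07) without the library set apart, which held 23.9 CPM against a strain median of 3.76 CPM. Col5a1, the main type V chain, differed by 0.18 in CAST/EiJ (adjusted p = 0.0453) and -0.22 in NZO/HlLtJ (adjusted p = 0.0184). The CAST/EiJ call was lost in 18 of 47 refits without a library, with adjusted p up to 0.0879. Col27a1 was higher in CAST/EiJ by 1.33 (adjusted p = 1.63e-10) and in NZO/HlLtJ by 0.92 (adjusted p = 8.11e-07).

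On the fibril surface, Col12a1 (chromosome 9, 79598991 to 79718831), known from tendon and healing tissue, ran from 0.193 to 0.693 CPM in CAST/EiJ (median 0.410), from 1.80 to 5.44 CPM in C57BL/6J (median 3.67) and from 3.08 to 8.15 CPM in NZO/HlLtJ (median 4.98). CAST/EiJ lay wholly below both other strains, with a log2 difference from C57BL/6J of -3.07 (SE 0.15, edgeR adjusted p = 5.92e-21). Col14a1 (chromosome 15, 55307750 to 55520803) had medians of 68.6 CPM in C57BL/6J, 29.5 CPM in CAST/EiJ and 67.9 CPM in NZO/HlLtJ. It was lower in CAST/EiJ than in C57BL/6J by -1.25 (SE 0.08, adjusted p = 3.09e-18), while the difference of NZO/HlLtJ was -0.02 (adjusted p = 0.856). Col16a1, another fibril-associated chain, was lower in both, at -1.02 and -0.71.

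At the border of basement membranes, Col15a1 ran from 7.33 to 22.4 CPM in C57BL/6J (median 11.7), from 3.15 to 12.9 CPM in CAST/EiJ (median 5.26) and from 16.7 to 59.8 CPM in NZO/HlLtJ (median 28.9). The NZO/HlLtJ and CAST/EiJ libraries did not overlap. The log2 differences from C57BL/6J were 1.35 (SE 0.12, edgeR adjusted p = 9.27e-12) in NZO/HlLtJ and -1.18 (SE 0.13, adjusted p = 4.21e-10) in CAST/EiJ. Within the runs, Col15a1 NZO/HlLtJ against C57BL/6J was 1.49, 1.03 and 1.64. The related and far more abundant Col18a1 was not called in any strain comparison, with differences of -0.02, 0.06 and -0.08 and adjusted p of 0.125 or more.

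In the type IV family Col4a3 and Col4a4 went the same way, while the chains of the X-linked pair went opposite ways between NZO/HlLtJ and CAST/EiJ. Col4a3 had medians of 0.824, 2.26 and 0.894 CPM and Col4a4 of 0.745, 1.82 and 0.732 CPM for C57BL/6J, for CAST/EiJ and for NZO/HlLtJ. Both were higher in CAST/EiJ than in C57BL/6J, by 1.42 and 1.29 (edgeR adjusted p = 1.52e-11 and 2.06e-10). The X-linked Col4a5 (141475385 to 141689234) was higher in NZO/HlLtJ by 0.64 and lower in CAST/EiJ by -0.49, with adjusted p of 3.53e-06 and 2.02e-04. Between NZO/HlLtJ and CAST/EiJ it was higher by 1.13, and its neighbour Col4a6 was lower by -0.92. Of the common pair, Col4a2 was lower in NZO/HlLtJ than in C57BL/6J (-0.33, adjusted p = 1.96e-03) and not called in CAST/EiJ (-0.01). Col4a1 at -0.25 in NZO/HlLtJ (adjusted p = 0.0389) was not called without the library set apart (-0.12, adjusted p = 0.112), and its difference in CAST/EiJ was -0.21 (adjusted p = 0.0785).

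Of the type VI filaments, Col6a1 was lower than in C57BL/6J in both CAST/EiJ (-0.96) and NZO/HlLtJ (-0.80), and Col6a2 by -0.33 and -0.42. Without the library set apart Col6a2 in CAST/EiJ was at -0.18 (edgeR adjusted p = 0.0628). Col6a3 was not called, at -0.14 and -0.33. The minor chain Col6a5 went the other way, with medians of 0.389 CPM in C57BL/6J, 1.57 CPM in CAST/EiJ and 2.71 CPM in NZO/HlLtJ. Its log2 differences from C57BL/6J were 2.65 (SE 0.17, adjusted p = 1.15e-16) in NZO/HlLtJ and 1.86 (adjusted p = 2.92e-12) in CAST/EiJ.

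Several members of low level separated the strains. Col7a1, the anchoring fibril collagen of skin, had a median of 3.15 CPM in CAST/EiJ (1.49 to 4.33) against 0.502 CPM in C57BL/6J (0.199 to 0.915) and 0.349 CPM in NZO/HlLtJ (0.121 to 0.497). Its difference of CAST/EiJ from C57BL/6J was 2.52 (SE 0.18, edgeR adjusted p = 7.90e-16), with no overlap. The membrane-spanning chains Col23a1, Col25a1 and Col17a1 were higher in NZO/HlLtJ than in C57BL/6J by 2.19, 1.99 and 2.47, and Col23a1 reached medians of only 0.849 CPM in NZO/HlLtJ and 0.159 CPM in C57BL/6J. Col26a1 was present in all 15 CAST/EiJ libraries and nearly absent from C57BL/6J. Its estimated counts summed to 133 in 8 CAST/EiJ female libraries (0.447 CPM) and 319 in 7 male libraries (1.19 CPM), but to 7.36 in 8 C57BL/6J female libraries and 0 in 8 male libraries. A count of 0 over those 8 allows up to 3 counts, or 0.00909 CPM, as a limit for counting error only.

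The laminins were mostly lower in CAST/EiJ, with 8 of 10 members lower and 1 higher than in C57BL/6J, beside 35.3% and 32.6% of all genes. Lamc3 had medians of 3.19, 0.967 and 1.96 CPM for C57BL/6J, for CAST/EiJ and for NZO/HlLtJ, and CAST/EiJ lay wholly below C57BL/6J (-1.70, SE 0.13, edgeR adjusted p = 8.59e-15). Its exons, of 6091 bases, share 382 bases in the largest overlap with an antisense transcript, Gm13441. Reads in that stretch cannot be assigned without strand. Lama5 fell from a median of 5.16 CPM in C57BL/6J to 3.44 CPM in CAST/EiJ (-0.59) and 2.25 CPM in NZO/HlLtJ (-1.11, SE 0.10, adjusted p = 2.87e-12). Lama2 (-0.91), Lama4 (-0.62), Lamb1 (-0.51) and Lamc1 (-0.27) were lower in CAST/EiJ than in C57BL/6J.

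In NZO/HlLtJ the laminins were mixed. Lama4 was higher than in C57BL/6J by 0.28 (edgeR adjusted p = 0.0113) and Lamb1 lower by -0.40 (adjusted p = 1.31e-05), while Lama2 at -0.15 and Lamc1 at 0.03 were not called. Lamc3 was lower by -0.71. Lama3 was higher than in C57BL/6J in both strains, by 0.84 in NZO/HlLtJ and 0.66 in CAST/EiJ. Lamb2, the beta chain of vessel and synapse membranes, was not called in any strain comparison (0.08, -0.03 and -0.11, adjusted p of 0.231 or more).

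Set directly against CAST/EiJ, NZO/HlLtJ had more Col12a1 by 3.56 (SE 0.15, edgeR adjusted p = 4.45e-23), more Col15a1 by 2.53 (SE 0.14), more Col5a3 by 2.09 and more Col14a1 by 1.23. It had less Col7a1 by -3.02, less Col11a2 by -2.52, and less Col4a3 and Col4a4 by -1.38 and -1.33. Col4a5 (1.13), Lamc3 (0.99), Lama4 (0.90), Lama2 (0.76), Col3a1 (0.45) and Lamc1 (0.30) were higher in NZO/HlLtJ. Col5a2 (-0.58), Lama5 (-0.52), Col27a1 (-0.41), Col5a1 (-0.39) and Col4a2 (-0.32) were lower. Not called were Col1a2 (0.09), Col4a1 (-0.05), Col6a1 (0.17), Col6a2 (-0.08), Col6a3 (-0.19) and Lamb1 (0.11).

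Markers of the cells that make matrix differed between strains as well. Stellate cell genes summed to medians of 314, 366 and 261 CPM for C57BL/6J, for CAST/EiJ and for NZO/HlLtJ, and 7 of 10 were lower in NZO/HlLtJ than in C57BL/6J, beside 23.6% of all genes. Sinusoidal endothelial genes summed to medians of 315, 259 and 318 CPM, and 7 of 7 were called between CAST/EiJ and C57BL/6J (2 higher and 5 lower), beside 67.9% of all genes (32.6% higher and 35.3% lower). Portal fibroblast genes summed to medians of 9.33, 7.29 and 9.13 CPM, with 3 of 4 lower in CAST/EiJ than in C57BL/6J, beside the same 35.3%. The 4 myofibroblast genes gave 0 calls by edgeR between any of the strains, with 1 unadjusted p under 0.05 (NZO/HlLtJ against CAST/EiJ). The part of these cells in the strain differences was not tested.

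**Figure D4:**
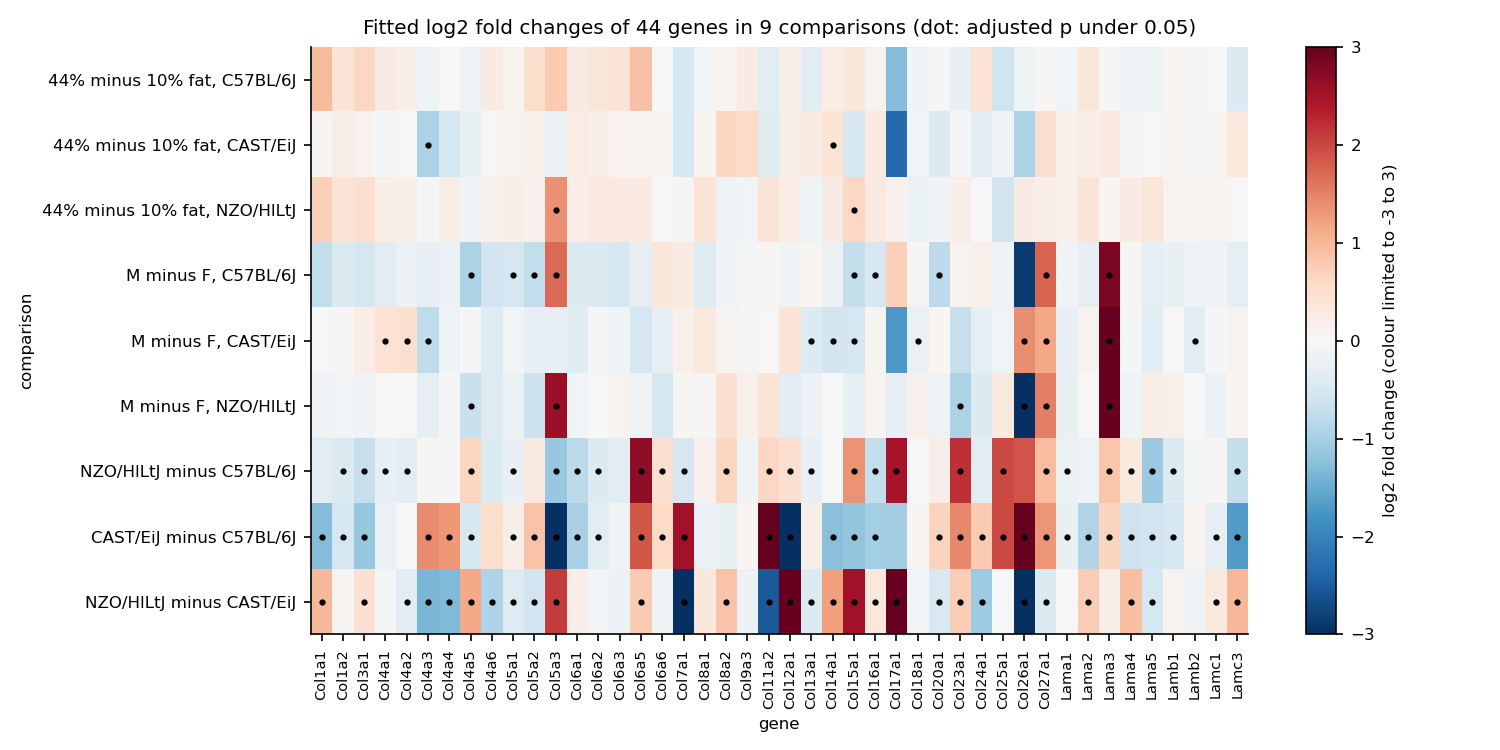
Fitted log2 fold changes of 44 of the 45 tested genes (columns) in 9 comparisons (rows), blue for negative and red for positive, with colour limited to -3 to 3 and a dot where the adjusted p is under 0.05. The 3 diet rows hold 0, 2 and 2 dots, the 3 sex rows 9, 11 and 6, and the 3 strain rows 28, 33 and 30.

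Sex differences were taken as male minus female over both diets. Lama3 and Col27a1 were higher in males of every strain, and Col5a3 was higher in males of C57BL/6J and NZO/HlLtJ. By edgeR 9 of 45 members were called in C57BL/6J (3 higher and 6 lower in males), beside 16.8% of all genes tested (8.1% higher and 8.7% lower). In CAST/EiJ 11 were called (5 higher and 6 lower), beside 30.3% (16.1% higher and 14.2% lower). In NZO/HlLtJ 6 were called (3 higher and 3 lower), beside 17.2% (7.94% higher and 9.31% lower). Without the library set apart the counts were 7, 13 and 7, beside 15.9%, 31.6% and 19% of all genes.

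Lama3 encodes the laminin alpha chain of epithelial anchoring membranes. In C57BL/6J it ran from 0.409 to 1.14 CPM in females (median 0.889) and from 2.44 to 10.3 CPM in males (median 5.96). In CAST/EiJ females had 0.858 to 1.91 CPM (median 1.19) and males 8.51 to 12.1 CPM (median 10.8). In NZO/HlLtJ females had 0.905 to 1.95 CPM (median 1.24) and males 8.51 to 19.7 CPM (median 13.0). No male library overlapped a female library of its strain. The log2 differences were 2.83 (SE 0.22), 3.08 (SE 0.22) and 3.38 (SE 0.22), with edgeR adjusted p of 3.90e-13, 2.40e-14 and 1.75e-15. Within the 3 runs of identifiers, Lama3 by sex in C57BL/6J was 3.15, 1.94 and 3.17, Lama3 by sex in CAST/EiJ was 3.04, 3.11 and 2.98, and Lama3 by sex in NZO/HlLtJ was 3.77 in run 1, where it could be fitted. Its exons share 197 bases in the largest overlap with an antisense transcript, Gm29200.

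Col27a1 lies at chromosome 4, 63214004 to 63334991. Its RefSeq start lies inside these bounds, so the window before that start is within the annotated gene and not upstream of it. Because Col27a1 differed by sex in all 3 strains, the 250 bases before its RefSeq start are shown, on the forward strand at chr4:63215162-63215411 of GRCm38.p6, with the GC box in capitals.
Col27a1: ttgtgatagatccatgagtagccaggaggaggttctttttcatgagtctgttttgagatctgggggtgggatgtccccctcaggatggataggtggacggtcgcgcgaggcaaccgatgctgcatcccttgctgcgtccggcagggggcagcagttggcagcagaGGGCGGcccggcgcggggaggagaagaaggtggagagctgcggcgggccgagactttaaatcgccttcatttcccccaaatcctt
Of the 4 motifs searched, only the GC box was in this window, 85 to 80 bases before the start. In C57BL/6J the gene ran from 8.18 to 25.3 CPM in females (median 14.9) and from 33.2 to 74.8 CPM in males (median 48.0). In NZO/HlLtJ it ran from 20.4 to 44.0 CPM in females (median 31.9) and from 60.5 to 127 CPM in males (median 85.5). The sexes did not overlap in these 2 strains. In CAST/EiJ they overlapped, at 34.5 to 86.7 CPM in females (median 42.7) and 62.9 to 142 CPM in males (median 104). The log2 differences for C57BL/6J, for CAST/EiJ and for NZO/HlLtJ were 1.74, 1.16 and 1.52 (SE 0.20 each), with edgeR adjusted p of 2.21e-08, 2.60e-05 and 3.44e-07. Within the runs, Col27a1 by sex in C57BL/6J was 2.31, 1.09 and 1.99, Col27a1 by sex in CAST/EiJ was 1.74, 0.78 and 1.13, and Col27a1 by sex in NZO/HlLtJ was 1.77 in run 1.

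Col5a3 showed the clearest sex difference that was not shared. C57BL/6J females ran from 9.69 to 56.97 CPM (median 18.8) and males from 61.1 to 95.2 CPM (median 75.0), without overlap. NZO/HlLtJ females ran from 2.81 to 20.2 CPM (median 7.27) and males from 19.1 to 81.6 CPM (median 46.6), overlapping at a single pair of values. CAST/EiJ females ran from 3.33 to 7.23 CPM (median 4.59) and males from 2.70 to 4.93 CPM (median 4.01). The log2 differences were 1.69 (SE 0.21, edgeR adjusted p = 1.68e-07), 2.56 (SE 0.23, adjusted p = 4.71e-11) and -0.24 (SE 0.24, adjusted p = 0.508) in C57BL/6J, NZO/HlLtJ and CAST/EiJ. Within the runs, Col5a3 by sex in C57BL/6J was 1.57, 1.93 and 1.77, and Col5a3 by sex in NZO/HlLtJ was 2.41 in run 1. The joint test that the sex difference was equal in the 3 strains gave an adjusted p of 3.07e-07.

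**Figure D5:**
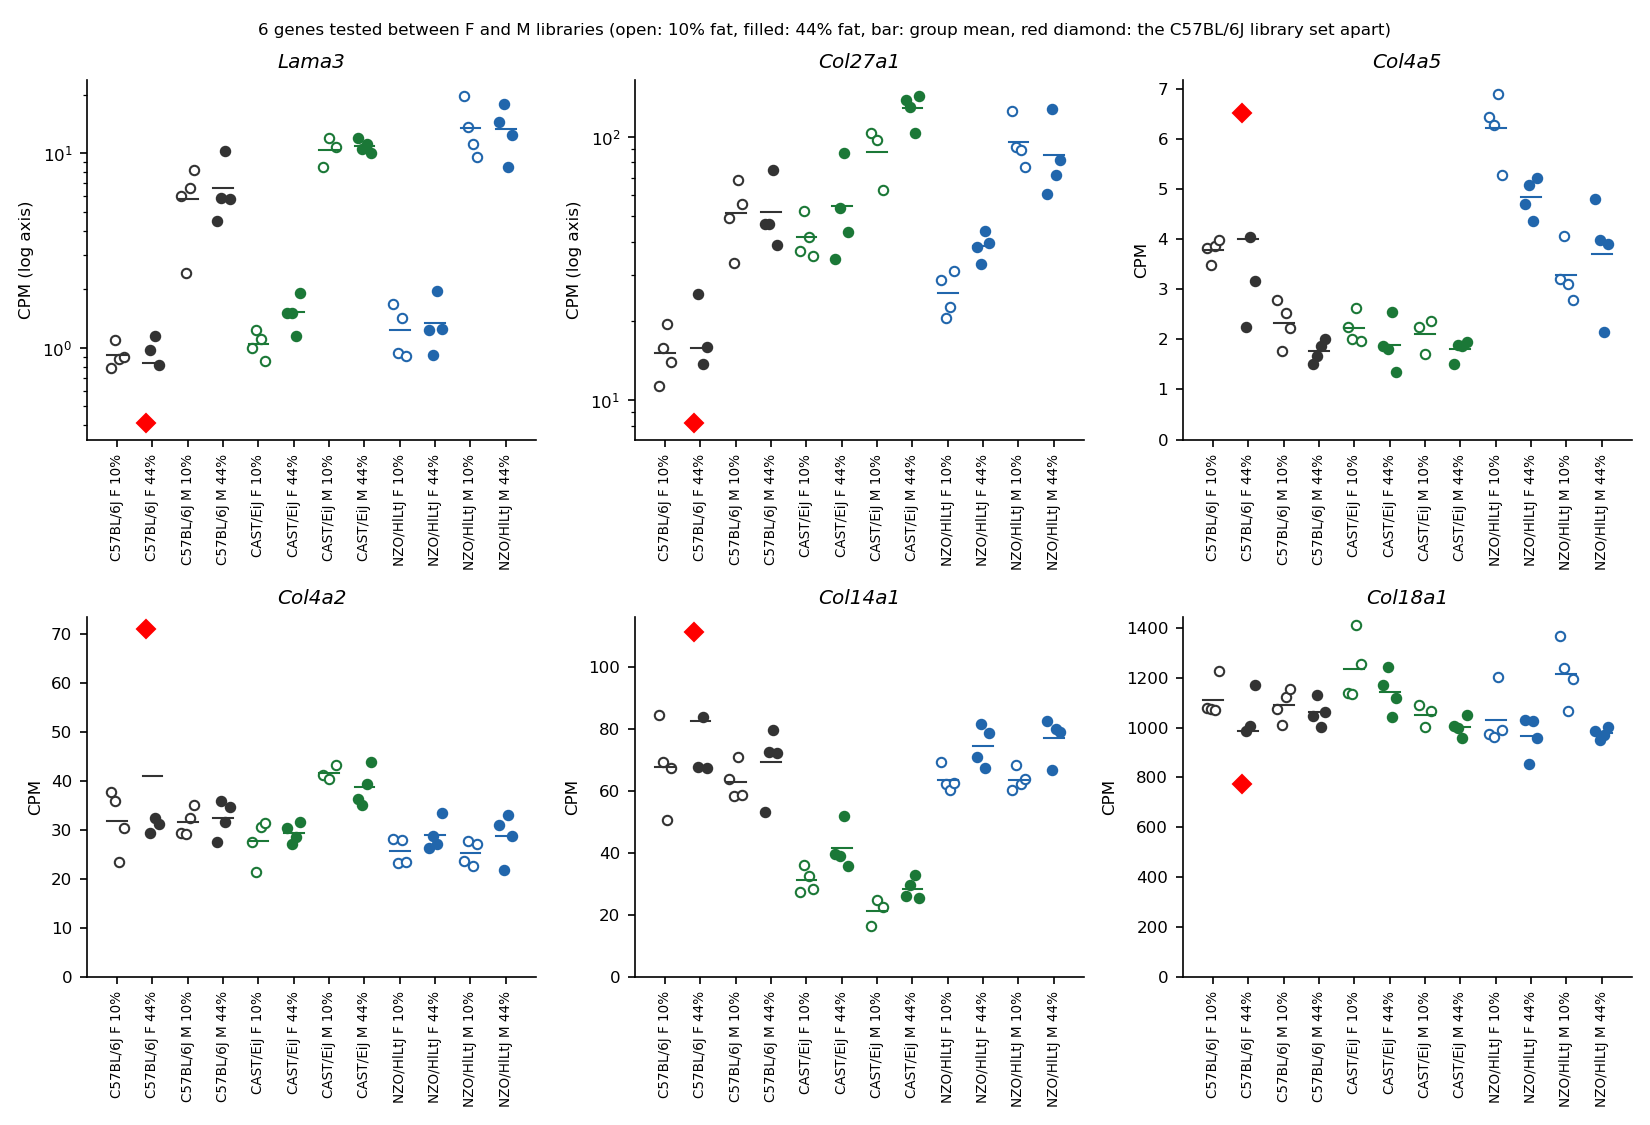
CPM of Lama3 and Col27a1 (log axis) and of Col4a5, Col4a2, Col14a1 and Col18a1 (linear axis from 0) in every library of the 12 groups, with open points for 10% fat, filled points for 44% fat, a bar at each group mean and a red diamond for C57BL/6J F 44% fat replicate 1. Lama3 separates males from females in every strain, Col4a2 separates them only in CAST/EiJ (35.2 to 43.9 against 21.4 to 31.6 CPM), and the diamond is the highest Col4a2 and lowest Col18a1 value of the plot.

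That joint test called 7 of 45 members by edgeR, beside 13.6% of all genes tested (7, beside 14.9%, without the library set apart). Besides Col5a3 they were Col26a1 (adjusted p = 1.09e-04), Col4a5 (0.0159), Col14a1 (0.0161), Col4a2 (0.0179), Col4a1 (0.0246) and Col18a1 (0.0314). All 7 are collagens, and 0 of 10 laminins were called, 2 of them with an unadjusted p under 0.05. The calls of Col18a1, Col14a1 and Col4a1 were each lost in at least 1 of the 47 refits without a library, with adjusted p up to 0.0733, 0.0507 and 0.0505.

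The type IV pair Col4a1 and Col4a2 differed by sex in CAST/EiJ. Col4a1 (chromosome 8, 11198423 to 11312826, reverse strand) ran from 34.3 to 48.7 CPM in females and from 51.7 to 61.3 CPM in males, and Col4a2 (chromosome 8, 11312805 to 11449287, forward strand) from 21.4 to 31.6 CPM and from 35.2 to 43.9 CPM. Neither overlapped. The log2 differences were 0.44 (edgeR adjusted p = 0.0228) and 0.49 (adjusted p = 3.05e-03). In NZO/HlLtJ they were -0.01 and -0.02, and in C57BL/6J -0.34 and -0.18, with adjusted p of 0.107 and 0.369, becoming -0.06 and 0.02 without the library set apart. These genes are transcribed away from each other from a shared start region, and their annotated ends overlap by 22 bases, shown on the forward strand of GRCm38.p6 at chr8:11312805-11312826 with a GC box in capitals.
Col4a1 and Col4a2 overlap: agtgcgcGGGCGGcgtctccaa

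Col4a5, a chain of the X-linked pair, was lower in males of C57BL/6J and NZO/HlLtJ. Females and males had medians of 3.84 and 1.95 CPM in C57BL/6J, 1.99 and 1.89 CPM in CAST/EiJ and 5.26 and 3.55 CPM in NZO/HlLtJ. The log2 differences were -0.94 (SE 0.15, edgeR adjusted p = 1.35e-05), -0.07 (adjusted p = 0.816) and -0.66 (adjusted p = 1.44e-03). Col4a3 was lower in males of CAST/EiJ by -0.75 (adjusted p = 3.35e-03), and its differences in C57BL/6J and NZO/HlLtJ were -0.25 and -0.30, uncalled.

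Col14a1 was lower in males of CAST/EiJ, at 16.3 to 32.7 CPM (median 25.3) against 27.4 to 51.9 CPM in females (median 36.0), a log2 difference of -0.55 (SE 0.11, edgeR adjusted p = 1.02e-04). In C57BL/6J and NZO/HlLtJ it was -0.18 and 0.02, uncalled. Col18a1 had medians of 1156 CPM in females and 1006 CPM in males of CAST/EiJ (-0.21, adjusted p = 0.0188), and uncalled differences of 0.04 in C57BL/6J and 0.13 in NZO/HlLtJ. Col26a1 was higher in CAST/EiJ males (1.41, adjusted p = 0.0189) and lower in NZO/HlLtJ males (adjusted p = 4.08e-04). In NZO/HlLtJ its estimated counts summed to 66 over 8 female libraries and to 1 over 8 male libraries, under the 3 counts allowed by a count of 0, so no fold is given.

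The other members called between the sexes were lower in males. In C57BL/6J they were Col15a1 (-0.71, edgeR adjusted p = 3.73e-03), Col5a1 (-0.50, adjusted p = 9.85e-04), Col16a1 (-0.50, adjusted p = 0.0179), Col5a2 (-0.73, adjusted p = 0.0328) and Col20a1 (-0.80, adjusted p = 0.0437). Col5a2 and Col16a1 were not called without the library set apart, a female library, at -0.12 (adjusted p = 0.586) and -0.34 (adjusted p = 0.0938). The Col20a1 call was lost in 11 of 47 refits. In CAST/EiJ they were Col15a1 (-0.51), Col13a1 (-0.41) and Lamb2 (-0.31), with adjusted p of 0.0444, 0.0345 and 0.0445 that were each lost in at least 9 of 47 refits. In NZO/HlLtJ the membrane-spanning Col23a1 was lower in males by -0.96 (adjusted p = 7.92e-03).

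The remaining main members were not called between the sexes. In C57BL/6J they were Col1a1 (-0.73), Col3a1 (-0.54), Col6a3 (-0.51), Col1a2 (-0.44), Col6a2 (-0.42), Col6a1 (-0.41), Lama5 (-0.28), Lama2 (-0.27), Lamb1 (-0.22), Lamb2 (-0.13), Lamc1 (-0.12) and Lama4 (0.03). Without the library set apart, Col1a1 was at 0.16, Col3a1 and Col1a2 at 0.02 and Col6a3 at -0.03. In CAST/EiJ the values ran from -0.36 for Col6a1 and -0.32 for Lama5 through -0.24 for Col5a2, -0.13 for Col6a3, -0.09 for Col5a1, -0.07 for Lamc1, -0.06 for Col6a2 and Lama4, -0.01 for Lamb1 and 0.00 for Col1a1 to 0.04 for Col1a2, 0.11 for Lama2 and 0.22 for Col3a1. In NZO/HlLtJ they ran from -0.65 for Col5a2 (edgeR adjusted p = 0.0579, and 7.38e-05 without the library set apart) to 0.23 for Lama5. Between these lay Col15a1 (-0.27), Col5a1 (-0.21), Lamc1 (-0.17), Lama4 (-0.14), Col1a1 and Col3a1 (-0.11), Col1a2 (-0.09), Col6a1 (-0.08), Col6a2 and Lama2 (-0.01 and 0.01), Lamb2 (0.01), Col6a3 (0.10) and Lamb1 (0.15).

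Of the stellate cell genes, 4 of 10 were lower in males of C57BL/6J and 4 of 10 in CAST/EiJ, beside 8.7% and 14.2% of all genes. In NZO/HlLtJ 1 of 10 was lower, near the 9.31% of all genes, and 0 were higher in any strain. Their part in the sex differences of collagens was not tested. The 7 sinusoidal endothelial genes gave 0 calls by edgeR between the sexes of any strain, with 0, 0 and 2 at an unadjusted p under 0.05 for C57BL/6J, for CAST/EiJ and for NZO/HlLtJ.

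How members varied between libraries of the same group was measured over 8 pairs, on log2 CPM with group means taken off (n = 47). The pairs set Col1a1 beside Col1a2, Col3a1, Col5a1, Col6a3, Col4a1 and Lamc1, Col4a1 beside Col4a2, and Lamb1 beside Lamc1. Col1a1 went with Col3a1 (Pearson r = 0.956, Spearman rho = 0.894) and with Col1a2 (r = 0.928, rho = 0.812). Col4a1 went with Col4a2 (r = 0.920, rho = 0.821). These 3 pairs had a permutation p of 1.0e-05, the smallest that 100000 permutations can give, and an adjusted p of 2.7e-05 for both coefficients. Without the 2 libraries farthest from the median, r was 0.895, 0.835 and 0.857. Within the 3 runs of identifiers, r of Col1a1 with Col3a1 was 0.968, 0.956 and 0.922, of Col1a1 with Col1a2 0.933, 0.941 and 0.889, and of Col4a1 with Col4a2 0.980, 0.902 and 0.739. Both of these checks kept the group means of all 47 libraries, which include the library set apart. With that library dropped and the group means taken anew, r of the 3 pairs was 0.873, 0.793 and 0.841.

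The other pairs leaned on the library set apart. Col1a1 with Col6a3 went from r = 0.804 to 0.405 without it, with Col5a1 from 0.724 to 0.390, and with Lamc1 from 0.686 to 0.440, with rho of 0.496, 0.526 and 0.577 over all libraries (permutation p of r 3.67e-03, 2.46e-03 and 1.48e-03, and of rho 7.67e-03, 3.01e-03 and 8.70e-04). Without the library set apart, the permutation adjusted p of r was 0.03826, 0.03885 and 0.02804, under 0.05 for each of these pairs. Leaving out the 2 farthest libraries gave r of 0.504, 0.459 and 0.525. Within the runs, r was 0.857, 0.767 and 0.745 with Col6a3, 0.749, 0.824 and 0.582 with Col5a1, and 0.844, 0.563 and 0.461 with Lamc1. The run values and those without the 2 farthest libraries kept group means that include the library set apart. They are therefore not free of that library in any run that holds its group.

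Col1a1 with Col4a1, a fibril chain against a network chain, fell from r = 0.703 (permutation p = 0.0357, rho = 0.340 with p = 0.0554) to 0.187 (p = 0.289) without the library set apart, so that relation rested on it. Lamb1 with Lamc1, partners in the same trimers, fell from r = 0.534 (permutation p = 0.0110, adjusted p = 0.0126, rho = 0.343 with p = 0.0408) to 0.287 (adjusted p = 0.0988). Without the 2 farthest libraries these were 0.343 and 0.354, and within the runs 0.839, 0.566 and 0.552 for the first and 0.620, 0.563 and 0.382 for the second. Here too the group means included the library set apart. With all libraries 8 of 8 pairs had an adjusted p of r under 0.05, and the libraries share the depth and the cell makeup of the tissue they came from.

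Genes that process, bind or degrade these proteins were read from lists. Their values come from the fit with all 47 libraries, which includes the library set apart. The diet counts are to be read beside all genes tested, of which 5.64% were called in NZO/HlLtJ, 0.895% in CAST/EiJ and 0.991% in C57BL/6J. In NZO/HlLtJ 6.9% of the processing genes, 6.25% of the receptors and 5.56% of the turnover genes were called, near the share of all genes. On the 44% fat diet in NZO/HlLtJ, of 29 collagen-processing genes Loxl2, which crosslinks type IV collagen, rose by 0.78 (edgeR adjusted p = 4.43e-03) and P3h1, a prolyl hydroxylase, fell by 0.31 (adjusted p = 0.0227). Of 16 receptors Sdc1, a cell-surface proteoglycan, rose by 0.47 (adjusted p = 3.33e-04), and of 18 turnover genes Mmp14, a membrane collagenase, fell by 0.45 (adjusted p = 6.17e-03). Basement membrane partners (12) and TGF-beta genes (18) gave 0 calls, each with 2 at an unadjusted p under 0.05. In CAST/EiJ 3 processing genes rose, among them Plod1 (0.27) and Pcolce2 (0.91), and the other 4 lists gave 0 calls with 1 to 3 unadjusted p under 0.05. In C57BL/6J Mmp12, a macrophage elastase, rose by 3.38 (adjusted p = 0.0180), and the other 4 lists gave 0 calls with 1 to 4 unadjusted p under 0.05.

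Between strains, the list counts are to be read beside all genes tested, of which 25.5% were higher and 23.6% lower in NZO/HlLtJ than in C57BL/6J, and 32.6% higher and 35.3% lower in CAST/EiJ. Collagen-processing genes gave 4 higher and 15 lower of 29 in NZO/HlLtJ and 13 higher and 6 lower in CAST/EiJ. Colgalt2, which adds galactose to collagen, was higher by 4.10 in NZO/HlLtJ and 6.15 in CAST/EiJ. Loxl4 was lower in NZO/HlLtJ by -2.74 and Tmem38b lower in CAST/EiJ by -1.30. Receptors gave 4 higher and 7 lower of 16 in NZO/HlLtJ and 3 higher and 6 lower in CAST/EiJ, and the laminin-binding integrin chain Itga6 was higher in NZO/HlLtJ (1.47) and lower in CAST/EiJ (-2.05). Turnover genes gave 3 higher and 7 lower of 18 in NZO/HlLtJ and 4 higher and 9 lower in CAST/EiJ, where Mmp14 was lower by -1.01 and Fap higher by 2.36. Basement membrane partners gave 5 higher and 4 lower of 12 in NZO/HlLtJ and 4 higher and 7 lower in CAST/EiJ, where Nid2, which links laminin to type IV collagen, was lower by -2.41. TGF-beta genes gave 3 higher and 7 lower of 18 in each, with Ltbp4 at -1.01 in NZO/HlLtJ and Ltbp1 at 1.61 in CAST/EiJ.

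Between NZO/HlLtJ and CAST/EiJ, where 35.3% of all genes were higher and 32.8% lower, the processing genes gave 3 higher and 18 lower of 29, receptors 6 and 6 of 16, turnover genes 8 and 3 of 18, basement membrane partners 6 and 3 of 12, and TGF-beta genes 3 and 4 of 18. By sex, all genes tested gave 8.1% higher and 8.7% lower in males of C57BL/6J, 16.1% and 14.2% in CAST/EiJ, and 7.94% and 9.31% in NZO/HlLtJ. Basement membrane partners called were lower in males in each strain (4, 4 and 3 of 12 for C57BL/6J, for CAST/EiJ and for NZO/HlLtJ), among them Smoc1 at -0.38 in C57BL/6J and -0.78 in CAST/EiJ, and 0 were higher. Mmp14 was lower in males of all 3 strains (-0.79, -1.03 and -0.98), as was Sdc1 (-0.58, -1.08 and -0.31), while Mmp15 was higher in males of C57BL/6J (0.37) and CAST/EiJ (0.73). Processing genes gave 2 higher and 3 lower, 1 and 5, and 0 and 3 of 29, receptors 1 and 4, 1 and 7, and 0 and 4 of 16, turnover genes 1 and 4, 2 and 4, and 1 and 3 of 18, and TGF-beta genes 0 and 1, 0 and 4, and 0 and 2 of 18.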

How the data were processed

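RNA was measured by polyA sequencing of mouse liver with ERCC spike-ins. The authors deposited expected counts per gene (20.4% of values were not whole) and variance-stabilized values on a log2 scale. GRCm38 and DESeq2 are named in the submitters' processing notes. The sources used here do not give the aligner, counter, annotation or strand use, nor whether CAST/EiJ and NZO/HlLtJ reads were counted against their own sequences, and the part of the latter in strain differences was not tested. Expected counts were rounded and tested with edgeR 4.0.16 (R 4.3.3): filterByExpr, TMM, 12 group means over 47 libraries, robust quasi-likelihood with 35 residual degrees of freedom, Benjamini-Hochberg over 16650 genes, and a check on simulated data. CPM and log2 values (prior count 2) used TMM totals. Levels per kilobase used the merged exons of all transcripts of a gene in GENCODE M21. No 2 libraries of a group agreed within sampling noise (lowest chi-square per gene 24.6 over 69 pairs). limma 3.58.1 (deposited log2 values) and DESeq2 1.42.0 were alternatives, with other normalizations and filters, runs of identifiers and left-out libraries. RefSeq promoter windows matched 34 of 47 members. Of each comparison, 20 fixed members and up to 10 further called members with the smallest p were named, with up to 2 called genes of each related list. Members, lists and tests were chosen with earlier results of these data known. Some laminin genes are not reported here.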

Additional observations from a re-analysis of the deposited data

Results flagged for a closer look

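In groups of 4 libraries, 17 of 220 tests over the main members found a library whose gap to its nearest neighbour exceeded Dixon's 95% limit. Of the 17, 13 were the same library, C57BL/6J F 44% fat replicate 1, always as the highest of its group. That library was set apart for its high Col1a1 from the start, so its 13 are a description and are not read against chance. Its levels were 81.6 CPM of Col1a1, 70.3 of Col1a2, 196.7 of Col3a1, 26.1 of Col5a1 and 23.9 of Col5a2 among the fibril-forming chains, and 26.3 of Col6a1, 19.3 of Col6a2 and 59.0 of Col6a3 among the filament chains. Among basement membrane genes they were 147.7 CPM of Col4a1, 71.0 of Col4a2, 9.46 of Lama2, 7.001 of Lama5 and 41.3 of Lamc1. The pancreatic, myofibroblast, portal fibroblast, cholangiocyte and other markers that were high in it are given above, and their part was not tested. A second C57BL/6J female library on 44% fat with Cpa1 at 41.0 CPM had 7.96 CPM of Col1a1, within the range of the group's other libraries.

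Chance alone flags about 1 in 20 groups. The other 4 were Col1a2 in CAST/EiJ M 44% fat replicate 2 (16.1 CPM), Col18a1 in C57BL/6J F 10% fat replicate 4 (1228 CPM) and in NZO/HlLtJ F 10% fat replicate 3 (1203 CPM), and Lama2 in NZO/HlLtJ M 10% fat replicate 2 (3.19 CPM).

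The male-minus-female difference was not equal in the 3 strains, by the joint edgeR test, for 7 collagens: Col5a3 (adjusted p = 3.07e-07), Col26a1 (1.09e-04), Col4a5 (0.0159), Col14a1 (0.0161), Col4a2 (0.0179), Col4a1 (0.0246) and Col18a1 (0.0314).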

How the results depend on the processing

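No paired analysis was possible because the labels give no replicate numbers, and numbers here only follow the order of the samples. The members called by diet in C57BL/6J were 0, and became 1 with a filter of 1 CPM in at least 4 libraries and 2 with DESeq2. By diet in CAST/EiJ 2 became 1 with the identifier run as a covariate, 0, 0 and 0 in the runs alone, and 0 in a fit of that strain alone. By diet in NZO/HlLtJ 2 became 6 when the 5 libraries high in Cpa1 (20 CPM or more) were left out, 0 in run 1 alone, and 4 in the strain alone, of which 1 was shared. NZO/HlLtJ against C57BL/6J gave 19, 15 and 14 in the runs alone against 29. By sex, C57BL/6J gave 3 and 3 in runs 2 and 3 against 9, and CAST/EiJ 3, 6 and 3 in the runs against 11. The joint diet test gave 1 with limma and 2 with DESeq2 against 0, and the joint sex test gave 0 in run 1 against 7. Of 8 gene pairs, 3 passed without the Cpa1 libraries. Runs alone hold fewer libraries. In runs 2 and 3, NZO/HlLtJ has only 2 of its 4 groups, so its diet and sex tests and the joint tests were not run there. For the other changes the cause was not tested. The counts of this paragraph stand without the share of all genes called under each setting, and are not read as a trait of the members.

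Leaving out 1 library gave 0 to 2 members by diet in C57BL/6J, 0 to 2 in CAST/EiJ and 1 to 6 in NZO/HlLtJ. All genes called in those refits numbered 56 to 369, 30 to 417 and 532 to 1178. In the strain comparisons (NZO/HlLtJ against C57BL/6J, CAST/EiJ against C57BL/6J, NZO/HlLtJ against CAST/EiJ) the members numbered 25 to 30, 32 to 35 and 29 to 31. All genes called there numbered 7926 to 8245, 11140 to 11350 and 11160 to 11430. By sex in C57BL/6J, in CAST/EiJ and in NZO/HlLtJ the members numbered 7 to 14, 7 to 13 and 6 to 7. All genes called by sex numbered 2274 to 2970, 4220 to 5253 and 2390 to 3148. The joint diet and sex tests gave 0 to 2 and 5 to 8 members, and 6 to 72 and 1816 to 2533 of all genes. Of the gene pairs, 6 to 8 passed. By sex the count in C57BL/6J was 14 without C57BL/6J F 44% fat replicate 4, and in CAST/EiJ 7 without CAST/EiJ M 10% fat replicate 2 or F 10% fat replicate 3. By diet in NZO/HlLtJ it was 6 without C57BL/6J F 44% fat replicate 1, and 1 without NZO/HlLtJ F 44% fat replicates 2 or 4, M 10% fat replicate 2, F 10% fat replicate 3 or M 44% fat replicate 3. By diet in CAST/EiJ it was 0 without CAST/EiJ M 10% fat replicate 1 and 1 in 13 other refits. By diet in C57BL/6J it was 2 without C57BL/6J F 44% fat replicate 2, and the joint diet test gave 2 without CAST/EiJ F 10% fat replicate 2 or NZO/HlLtJ M 10% fat replicate 4.

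Some log2 differences changed sign. Col1a1 by diet in C57BL/6J was -0.039 in run 3. Col1a1 by diet in CAST/EiJ, 0.06 with all libraries, was -0.034 without the Cpa1 libraries, -0.083 and -0.192 in runs 1 and 3, and -0.038 to 0.189 over refits without 1 library. Col4a3 by diet in CAST/EiJ was 0.135 in run 2. In run 1, Col5a1 CAST/EiJ against C57BL/6J was -0.125, Col6a6 CAST/EiJ against C57BL/6J -0.227, Col20a1 NZO/HlLtJ against CAST/EiJ 0.010 and Col20a1 by sex in C57BL/6J 0.337. In run 2, Col5a2 by sex in C57BL/6J was 0.261 and Col15a1 by sex in CAST/EiJ 0.090. Col5a3 by diet in NZO/HlLtJ passed in 47 of 47 refits without a library and in 7 of 7 other settings, but not in run 1 alone (1.22, adjusted p = 0.388). Of the values of named genes under other settings, 1279 kept direction and side of the threshold, 177 lost the call, 4 gained it and 11 changed sign. The SE of the log2 diet differences had a median of 0.35 over the 11 tested members with a mean under 1 CPM and 0.18 over the other 34, and the smallest difference this depth could show was not measured.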

Other observations

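The members not described above were mostly low. Lama1, an early-acting laminin alpha chain, stood at 5.41 to 11.1 CPM and was slightly lower than in C57BL/6J in NZO/HlLtJ (-0.21, edgeR adjusted p = 0.0123) and CAST/EiJ (-0.22, adjusted p = 6.25e-03). Col24a1, a minor fibrillar chain at a mean of 0.385 CPM, was higher in CAST/EiJ than in C57BL/6J by 0.79 and than in NZO/HlLtJ, which differed from it by -1.10. Col20a1 was higher in CAST/EiJ than in C57BL/6J by 0.67, and Col6a6 was higher than in C57BL/6J in CAST/EiJ (0.59) and NZO/HlLtJ (0.47). The Col6a6 call in NZO/HlLtJ held in 38 of 47 refits without a library (edgeR adjusted p up to 0.0932). Col8a2, of the endothelial and corneal type VIII, was higher in NZO/HlLtJ than in C57BL/6J by 0.64 and than in CAST/EiJ by 0.86, while its partner Col8a1 was not called in any of the 9 comparisons. Col13a1 was lower in NZO/HlLtJ than in C57BL/6J (-0.25) and CAST/EiJ (-0.42). The call against C57BL/6J held in 34 of 47 refits without a library (edgeR adjusted p up to 0.0863). Col9a3, at a mean of 0.176 CPM, was not called in any comparison.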
